A study of Mus musculus with 6 samples.

Results

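Collagen genes were examined in murine small cell lung cancer (SCLC) cells with and without a knockout of the receptor tyrosine kinase gene Erbb2. The members were all genes of the expression table whose symbol has the form of a collagen chain (Col, a type number, the letter a and a chain number). The table held 20273 genes, of which 33 were collagens. The 20 of these with at least 1 CPM (a read count scaled to a common library total) in any library are described here. RNA of cultured cells was sequenced in 3 ERBB2 KO and 3 WT libraries. The ERBB2 KO cells came from Cas9 transfection, puromycin selection and sorting of single clones. WT cells were unedited, and both groups grew in RPMI medium with serum. The study calls the 3 libraries of each group biological replicates. How many clones stand behind the ERBB2 KO libraries and whether each library had its own culture is not stated, so p-values measure the spread between these libraries only. The mice in which the study induces SCLC lose Rb1 and Trp53 through Cre, and the labels do not name the line from which these cells came.

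Collagens are secreted proteins whose chains wind around each other in a helix that needs glycine at regular steps. Fibrillar collagens form the cables of connective tissue, type IV collagen forms the sheet on which epithelia rest, and other types link, coat or anchor these structures. Before the helix can form, enzymes in the endoplasmic reticulum hydroxylate prolines and lysines, and outside the cell other enzymes trim the chains and cross-link them. Fibroblasts make most fibrillar collagen in lung tissue, while epithelial and tumor cells can make basement membrane collagens themselves.

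The libraries held 8927461 to 11792342 reads in ERBB2 KO and 10983851 to 13255671 reads in WT, so that 3 reads corresponded to 0.226 to 0.336 CPM. Erbb2 did not tell the groups apart, with 12.1, 6.19 and 2.80 CPM in ERBB2 KO 1 to 3 against 10.7, 3.95 and 6.64 CPM in WT 1 to 3 (log2 difference -0.10 ± 0.52 SE, limma adjusted p = 0.941). Reads outside the edited site do not check a knockout, and the site is not given in the sources used here. WT 2 and WT 3 stood apart from the other libraries by Xist, the RNA that silences an X chromosome, with 208 and 178 CPM against at most 0.112 CPM in each of the other 4. As for the labelled cell type, the keratins Krt8 and Krt18 were abundant throughout, with lowest values of 590.1 and 719 CPM in ERBB2 KO against 402 and 282 CPM in WT. The epithelial cadherin Cdh1 was below 1 CPM in every library but WT 3, with at most 0.336 CPM in ERBB2 KO against 0.182, 0.242 and 10.0 CPM in WT 1 to 3. These were 3 of 4 epithelial markers, and Epcam was not in the table. Of 9 neuroendocrine markers 5 were in the table, and Syp, Chgb and Dll3 stayed below 1 CPM, while Ncam1 ranged over 121 to 353 CPM in ERBB2 KO against 277 to 1253 CPM in WT. Uchl1 had 0 reads in ERBB2 KO against 0.546, 26.6 and 10.7 CPM in WT 1 to 3. ERBB2 KO 1 had the most reads of fibroblast markers, which are given below with the collagens they accompany. In bulk RNA fewer cells of a kind and less RNA per cell cannot be told apart.

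Collagen levels varied widely between single libraries, and no collagen gene passed the test between the groups. Of the 17 members that could be tested (at least 1 CPM in at least 3 libraries), 12 had a lower and 5 a higher mean in ERBB2 KO, that is 70.6% lower against 53.2% of all 11803 tested genes. The adjusted p of the 17 genes ran from 0.321 to 0.837 (limma), and 0 passed, as in the whole table, where 0% of genes passed by limma or by limma's voom. With array quality weights, which set ERBB2 KO 1 and WT 1 low, 1759 genes passed and 7 of the 17 collagens among them. Without WT 1 146 genes passed, of them 1 collagen, and without ERBB2 KO 1 30 genes and 0 collagens. At an unadjusted p below 0.05 there were 5 members (29.4%, against 13.2% of all genes). Col1a1, Col1a2, Col27a1 and Col12a1 were the 4 lower ones, where 7.27% of all genes were that low, and Col3a1 was the 1 higher one, where the share of all genes was 5.96%. The count of 5 was not stable. It was 2 without ERBB2 KO 2, WT 2 or WT 3 and 3 by voom, but 9 without ERBB2 KO 1 and 13 with array quality weights. The share of all genes is not given for these fits. In 2 members (11.8%), Col1a1 and Col27a1, every ERBB2 KO value lay below every WT value, close to the 10.6% of all genes. Col27a1 could be tested only because all WT libraries reached 1 CPM, which fixed its direction and its lack of overlap. No member had every ERBB2 KO value above every WT value (8.76% of all genes). The median log2 difference of the 17 genes was -0.45, beside -0.039 over all tested genes.

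The count of 12 lower genes stayed at 12 without any single WT library and was 15 without ERBB2 KO 1 and 10 without ERBB2 KO 3. Of the 20 members 7 peaked in ERBB2 KO 1 and 8 in WT 2, whereas 0 peaked in ERBB2 KO 3, which held the lowest value, with no tie, of 10. A span of more than 10-fold between the lowest and the highest library, taken on CPM + 1, was found in 6 members. The other 13 collagen genes of the table never reached 1 CPM and had at most 30 reads together in any library. They were Col4a3, Col4a4, Col8a2, Col9a3, Col10a1, Col11a2, Col15a1, Col17a1, Col19a1, Col20a1, Col22a1, Col25a1 and Col26a1. Just below the limit was Col4a3 with 0.848 CPM in ERBB2 KO 2, and just above it Col6a3 with 2.80 CPM in ERBB2 KO 1.

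**Figure D1:**
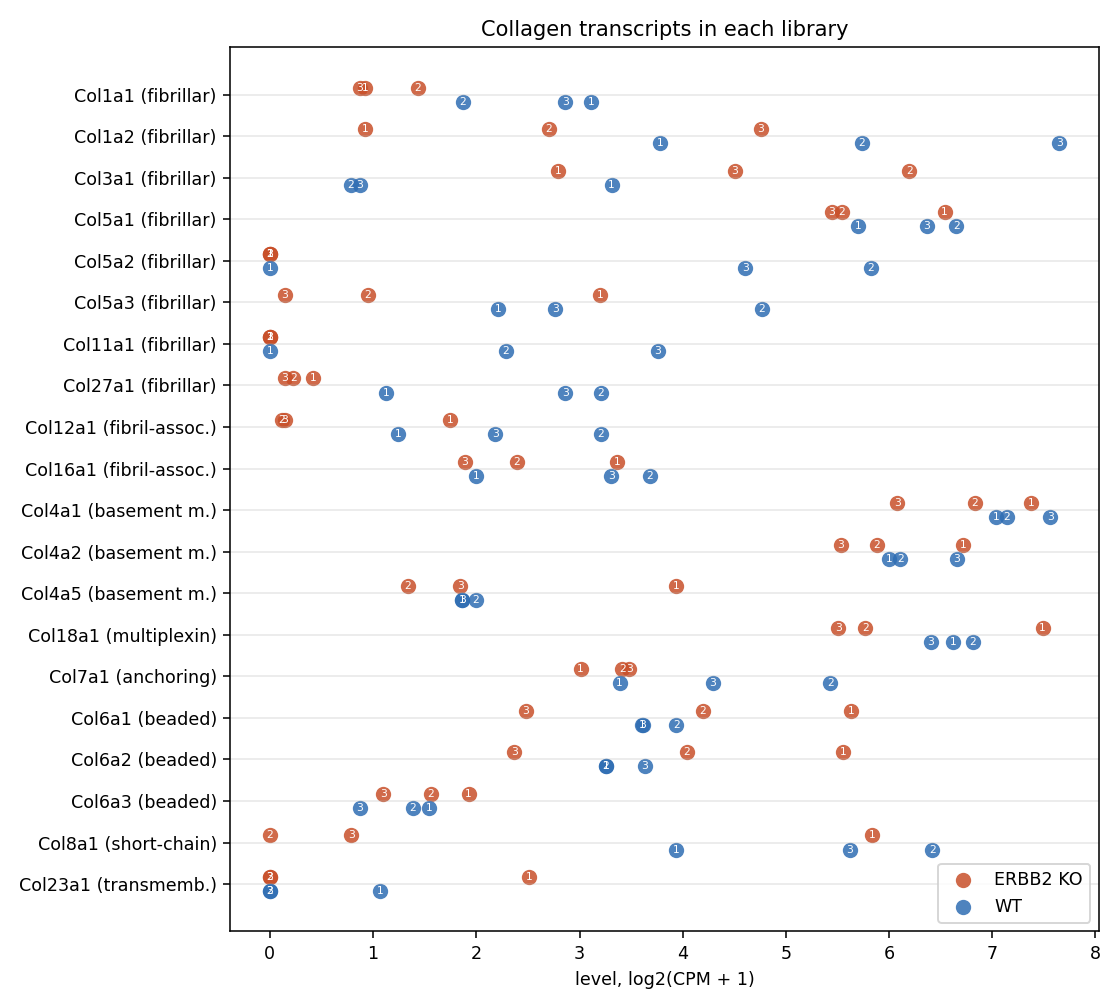
Levels of the 20 collagen genes as log2(CPM + 1), 1 point per library with its replicate number (ERBB2 KO in orange, WT in blue), grouped by structural class. Col1a1 and Col27a1 are the only tested genes whose groups do not overlap, Col5a2 and Col11a1 have points above 0 only in WT 2 and WT 3, and Col8a1 spans 0 to 84.6 CPM.

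Among the fibrillar collagens, both chains of type I collagen were lower on average in ERBB2 KO and the chain of type III collagen was higher. Type I collagen is the main protein of bone, tendon and scar, and its usual molecule combines the products of Col1a1 and Col1a2. Col1a1 (mm10 chromosome 11, 94936224 to 94953042) was at 0.896, 1.70 and 0.831 CPM in ERBB2 KO 1 to 3 against 7.65, 2.66 and 6.26 CPM in WT 1 to 3. All ERBB2 KO values were below all WT values, by a log2 difference of -1.54 ± 0.40 (SE) on log2(CPM + 1), which did not pass over all genes (limma, adjusted p = 0.321). These levels rest on 8 to 20 reads in the ERBB2 KO libraries and 33 to 84 reads in the WT libraries. Col1a2 (chromosome 6, 4505618 to 4541543) was at 0.896, 5.51 and 26.1 CPM in ERBB2 KO 1 to 3 against 12.7, 52.2 and 199.8 CPM in WT 1 to 3. WT 2 and WT 3 were the highest, and ERBB2 KO 3 lay above WT 1, so the groups overlapped (-2.93 ± 1.18, limma adjusted p = 0.361).

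Type III collagen forms thin fibrils in soft organs and vessels and is made from Col3a1 alone. Col3a1 (chromosome 1, 45311538 to 45349706) went against the type I chains. It was at 5.94, 72.3 and 21.7 CPM in ERBB2 KO 1 to 3 against 8.92, 0.725 and 0.830 CPM in WT 1 to 3. WT 1 lay within the range of the ERBB2 KO libraries and only WT 2 and WT 3 were below 1 CPM (2.84 ± 0.98, limma adjusted p = 0.350). Its neighbor on the chromosome, Col5a2 (45374331 to 45503282), starts 24625 bases beyond the end of Col3a1 with no protein-coding gene between them. Col5a2 had 0 reads in ERBB2 KO 1 to 3, which allows up to 0.254 to 0.336 CPM, and 0 reads in WT 1 (up to 0.273 CPM), against 55.6 and 23.4 CPM in WT 2 and WT 3. The 2 libraries with Col5a2 reads were thus the 2 with the least Col3a1.

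The promoters of Col1a2 and Col3a1 are shown because Col1a2 was highest and Col3a1 lowest in the same pair of libraries, WT 2 and WT 3. The windows run from 250 bases before to 50 bases after the transcript start that RefSeq gives (build GRCm38.p6, to which mm10 corresponds), so that the transcript begins at base 251. Capitals mark the TATA box (TATAAA), the CCAAT box, the GC box (GGGCGG) or the AP-1 motif (TGANTCA) on either strand. A CCAAT box on the opposite strand reads ATTGG here and a GC box reads CCGCCC, while the AP-1 motif reads alike on both strands.
Col1a2, chr6:4505368-4505667, plus strand: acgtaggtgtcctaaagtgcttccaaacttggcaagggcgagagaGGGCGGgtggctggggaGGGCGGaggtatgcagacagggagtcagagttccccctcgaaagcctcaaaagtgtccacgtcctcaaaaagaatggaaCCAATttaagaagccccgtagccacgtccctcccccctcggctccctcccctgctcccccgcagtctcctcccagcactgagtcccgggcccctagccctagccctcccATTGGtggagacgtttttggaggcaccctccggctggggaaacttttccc
Col3a1, chr1:45311288-45311587, plus strand: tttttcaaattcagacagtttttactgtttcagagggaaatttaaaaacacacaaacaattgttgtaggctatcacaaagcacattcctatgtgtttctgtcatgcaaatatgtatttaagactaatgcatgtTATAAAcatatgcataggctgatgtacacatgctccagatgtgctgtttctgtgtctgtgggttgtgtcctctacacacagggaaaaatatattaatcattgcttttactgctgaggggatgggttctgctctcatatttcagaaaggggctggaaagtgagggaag
The Col1a2 window held GGGCGG from bases 46 and 63 and CCAAT from base 142 and, on the opposite strand, from base 251. The Col3a1 window held none of these and instead TATAAA from base 134, and its GC content of 37.7% was the lowest among the member windows. The TATA box occurred in 13.6% of all 32851 promoter windows and in 1 of the 19 windows of members. The CCAAT box was in 37.4% of all windows and in 9 of members, the GC box in 35.7% and in 15, and the AP-1 motif in 7.81% and in 1, that of Col6a1. The median GC content was 61.7% over the member windows and 52.7% over all windows. Windows were found for 17 of the 20 members. Those of Col1a1, Col5a2 and Col12a1 were not analysed here.

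Type V and type XI collagens are minor fibrillar collagens that set the width of fibrils, type XI mainly in cartilage. Col5a1 (chromosome 2, 27886381 to 28039510) was the fibrillar gene with the steadiest level, at 91.9, 45.5 and 42.6 CPM in ERBB2 KO 1 to 3 against 51.1, 99.5 and 81.3 CPM in WT 1 to 3. The groups overlapped (log2 difference -0.40 ± 0.37 SE, limma adjusted p = 0.640). Col5a3 (chromosome 9, 20770050 to 20815117) was at 8.18, 0.933 and 0.104 CPM in ERBB2 KO 1 to 3 against 3.64, 26.3 and 5.81 CPM in WT 1 to 3. ERBB2 KO 1 lay among the WT values while the other ERBB2 KO libraries were below them (-1.82 ± 0.92, limma adjusted p = 0.425). Col11a1 (chromosome 3, 114030479 to 114220756) repeated the pattern of Col5a2, with 0 reads in ERBB2 KO 1 to 3 and in WT 1 against 3.87 and 12.5 CPM in WT 2 and WT 3. Neither Col5a2 nor Col11a1 reached 1 CPM in enough libraries to be tested.

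Col27a1 (chromosome 4, 63214009 to 63334991), a fibrillar collagen of cartilage, was the other gene whose groups did not overlap. It was at 0.336, 0.170 and 0.104 CPM in ERBB2 KO 1 to 3, that is 3, 2 and 1 reads, against 1.18, 8.22 and 6.26 CPM in WT 1 to 3. Its log2 difference was -2.13 ± 0.55 (SE, limma adjusted p = 0.321), a value that depends on the pseudocount because the ERBB2 KO counts are so low. Col27a1 was also the 1 collagen that passed without WT 1 (log2 difference -2.77, limma adjusted p = 0.0238). It met the limit of 1 CPM in 3 libraries through WT 1 to 3 alone. The filter thus fixed its direction and its lack of overlap, which are no evidence for a difference.

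The fibril-associated collagens XII and XVI sit on the surface of fibrils. Col12a1 (chromosome 9, 79598987 to 79721141) was at 2.35, 0.0848 and 0.104 CPM in ERBB2 KO 1 to 3 against 1.37, 8.22 and 3.55 CPM in WT 1 to 3. ERBB2 KO 2 and ERBB2 KO 3 had a single read each, and ERBB2 KO 1 lay above WT 1 (-1.54 ± 0.64 SE, limma adjusted p = 0.370). Col16a1 (chromosome 4, 130047817 to 130099277) was at 9.30, 4.24 and 2.70 CPM in ERBB2 KO 1 to 3 against 3.00, 11.8 and 8.90 CPM in WT 1 to 3. Here too ERBB2 KO 1 stood with WT 2 and WT 3, and WT 1 with the other ERBB2 KO libraries (-0.45 ± 0.55, limma adjusted p = 0.737).

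The main chains of basement membrane collagen differed little between the groups. Type IV collagen builds the network of basement membranes, and its common form combines the products of Col4a1 and Col4a2. Col4a1 (chromosome 8, 11198423 to 11312889) was at 165, 113 and 66.7 CPM in ERBB2 KO 1 to 3 against 130.0, 139.9 and 188 CPM in WT 1 to 3 (log2 difference -0.48 ± 0.34 SE, limma adjusted p = 0.543). Col4a2 (chromosome 8, 11312805 to 11449287) was at 104, 58.0 and 45.2 CPM in ERBB2 KO 1 to 3 against 63.1, 68.1 and 99.7 CPM in WT 1 to 3 (-0.21 ± 0.34, limma adjusted p = 0.806). In both genes ERBB2 KO 3 was the lowest library, ERBB2 KO 1 and WT 3 were the highest, and the groups overlapped. Without ERBB2 KO 3 the log2 difference of Col4a2 was 0.044. The 2 genes lie head to head on opposite strands and share 85 bases of RefSeq annotation. Strand was not given for the counting, so reads in those bases could fall to either gene.

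The window of Col4a2 is shown because it holds the starts of both genes, whose levels kept closest together.
Col4a2, chr8:11312555-11312854, plus strand: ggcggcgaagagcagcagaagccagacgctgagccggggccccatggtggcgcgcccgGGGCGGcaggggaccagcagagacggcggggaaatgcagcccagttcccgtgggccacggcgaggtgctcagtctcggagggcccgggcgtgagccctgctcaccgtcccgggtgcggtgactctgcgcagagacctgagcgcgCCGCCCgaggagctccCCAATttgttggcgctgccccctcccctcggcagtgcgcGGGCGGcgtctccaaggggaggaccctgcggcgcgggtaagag
The Col4a2 transcript begins at base 251 and the Col4a1 transcript at base 272, on the opposite strand, so that the starts used for the windows are 21 bases apart. The Col4a1 gene as annotated reaches farther, to 11312889, which gives the 85 shared bases. GGGCGG was found from bases 59 and 258 and, on the opposite strand, from base 203, and CCAAT from base 219. Of the window 78 bases are also in the window of Col4a1.

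Col4a5 (chromosome X, 141475370 to 141689236), the gene behind X-linked Alport syndrome in people, was at 14.3, 1.53 and 2.60 CPM in ERBB2 KO 1 to 3 against 2.64, 2.98 and 2.64 CPM in WT 1 to 3. It was high in ERBB2 KO 1 alone (0.47 ± 0.64 SE, limma adjusted p = 0.774), and without that library the log2 difference was -0.32. Col18a1 (chromosome 10, 77052178 to 77166530) encodes a collagen of basement membranes from which the fragment endostatin is cut. It was at 178, 53.6 and 44.5 CPM in ERBB2 KO 1 to 3 against 97.6, 111 and 83.6 CPM in WT 1 to 3. ERBB2 KO 1 was again the highest and the other ERBB2 KO libraries the lowest (-0.36 ± 0.49, limma adjusted p = 0.774). Without ERBB2 KO 3 the log2 difference was 0.016.

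Col7a1 (chromosome 9, 108953586 to 108984875) makes the anchoring fibrils that tie epithelium to the tissue beneath it. It was at 7.06, 9.67 and 10.2 CPM in ERBB2 KO 1 to 3 against 9.47, 42.1 and 18.6 CPM in WT 1 to 3. The ERBB2 KO libraries and WT 1 formed a narrow band, with WT 2 and WT 3 above it (-1.07 ± 0.50 SE, limma adjusted p = 0.402).

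Type VI collagen, which forms beaded filaments close to cells, followed ERBB2 KO 1. Col6a1 (chromosome 10, 76708792 to 76726044) was at 48.6, 17.3 and 4.57 CPM in ERBB2 KO 1 to 3 against 11.2, 14.3 and 11.2 CPM in WT 1 to 3. Its neighbor Col6a2 (76595756 to 76623630) was at 46.0, 15.4 and 4.15 CPM in ERBB2 KO 1 to 3 against 8.56, 8.54 and 11.4 CPM in WT 1 to 3. In both genes the ERBB2 KO libraries spanned the whole range, ERBB2 KO 1 on top and ERBB2 KO 3 at the bottom, with the WT libraries close together between them. The log2 differences of 0.38 ± 0.71 and 0.61 ± 0.72 (SE, limma adjusted p = 0.837 and 0.729) were -0.38 and -0.18 without ERBB2 KO 1. Col6a3 (chromosome 1, 90766860 to 90844001) stayed low, at 1.14 to 2.80 CPM in ERBB2 KO against 0.830 to 1.91 CPM in WT (0.26 ± 0.35, limma adjusted p = 0.767).

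Col8a1 (chromosome 16, 57624256 to 57754737) encodes a short-chain collagen of vessel walls and of a membrane in the cornea. Of the 17 tested genes it had the widest difference in mean log2(CPM + 1) and the largest SE. It was at 56.0, 0 and 0.727 CPM in ERBB2 KO 1 to 3 against 14.3, 84.6 and 48.1 CPM in WT 1 to 3. ERBB2 KO 2 had 0 reads (up to 0.254 CPM) and ERBB2 KO 3 had 7, while ERBB2 KO 1 lay among the WT libraries (log2 difference -3.12 ± 1.48 SE, limma adjusted p = 0.408). Col23a1 (chromosome 11, 51289679 to 51583925), a collagen held in the cell membrane, had 4.70 CPM in ERBB2 KO 1 and 1.09 CPM in WT 1, and 0 reads in the other 4 libraries.

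Where ERBB2 KO 1 was high in collagens VI, IV alpha 5, XVIII and XXIII, it was also high in most fibroblast markers measured. Of 8 such markers that are not collagens 4 were in the table, and their summed level was 313, 3.22 and 2.18 CPM in ERBB2 KO 1 to 3 against 37.8, 2.74 and 26.0 CPM in WT 1 to 3. Decorin (Dcn) made up 267 CPM of the sum in ERBB2 KO 1, and Pdgfra was at 30.5 CPM there and at 0 in ERBB2 KO 2 and ERBB2 KO 3. Pdgfrb was highest in ERBB2 KO 1 as well (15.8 CPM), but Fbn1 was at 0.336, 2.12 and 1.77 CPM in ERBB2 KO 1 to 3 against 12.4, 0.242 and 3.32 CPM in WT 1 to 3. Of the type I chains, Col1a2 had its lowest value of all libraries in ERBB2 KO 1. Col1a1 was at 0.896 CPM there and was highest in WT 1 (7.65 CPM), as was Fbn1. The 3 endothelial markers in the table stayed below 1 CPM in every library, as did Ptprc, the pan-leukocyte marker (at most 0.415 CPM). The other leukocyte markers in the table had reads in every library, Csf1r at 7.04 to 12.0 CPM in ERBB2 KO against 10.7 to 20.6 CPM in WT and Cd68 at 4.41 to 7.17 CPM against 1.21 to 2.37 CPM. Whether other cells contributed to these collagen reads was not tested.

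Summed over all 33 genes, collagen reads came to 749, 403 and 275 CPM in ERBB2 KO 1 to 3 against 432, 744 and 814 CPM in WT 1 to 3. The means of 476 ± 245 and 663 ± 204 CPM (SD, n = 3 each) differed by less than the spread within the groups. Reads of fibrillar collagens were 108, 126 and 91.5 CPM in ERBB2 KO 1 to 3 against 85.4, 249 and 336 CPM in WT 1 to 3. The ERBB2 KO libraries and WT 1 were alike in this sum, and WT 2 and WT 3 were above them. Basement membrane collagens gave 285, 174 and 115 CPM in ERBB2 KO 1 to 3 against 197, 211 and 290.4 CPM in WT 1 to 3, and the beaded filament collagens 97.5, 34.9 and 9.97 CPM against 21.7, 24.7 and 23.7 CPM. Col4a1, Col4a2, Col18a1 and Col5a1 together took 66.9% to 72.3% of the collagen reads in ERBB2 KO and 55.6% to 79.2% in WT. These are shares of reads, which are not corrected for transcript length.

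**Figure D2:**
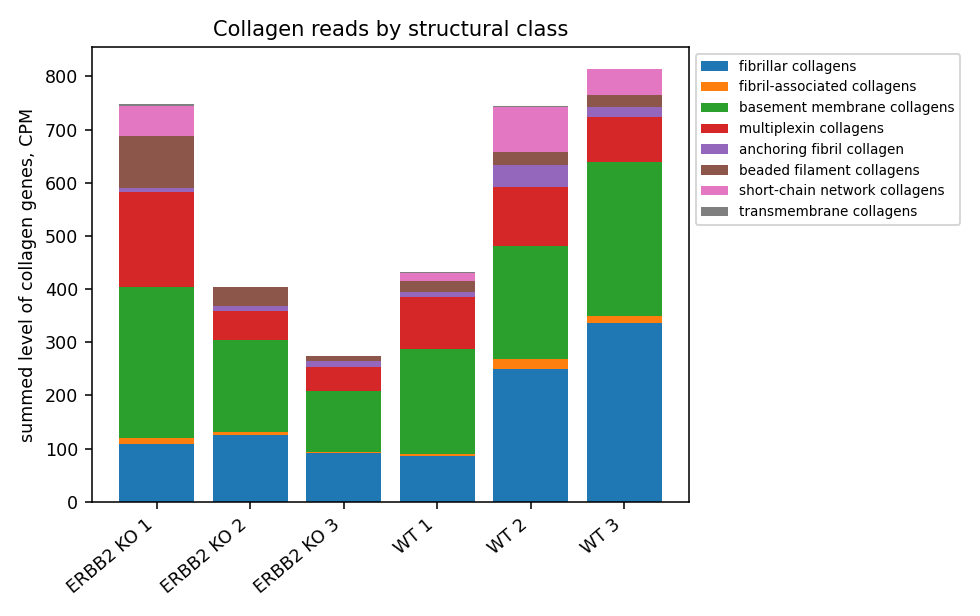
Summed CPM of the 33 collagen genes in each library, stacked by structural class, ERBB2 KO libraries on the left and WT libraries on the right. The fibrillar sum is 249 and 336 CPM in WT 2 and WT 3 and at most 126 CPM in the other 4 libraries, and the beaded filament sum is 97.5 CPM in ERBB2 KO 1.

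Chains that assemble into the same molecule kept a steady ratio in some types and not in others. For Col4a1 over Col4a2 the log2 ratio of CPM + 1 stayed between 0.55 and 1.03 over the 6 libraries, with an SD of 0.20 beside SDs of 0.52 and 0.46 for the levels of the 2 genes. For Col6a1 over Col6a2 the SD of the ratio was 0.26 beside 1.03 and 1.07, although these genes lie 85162 bases apart. The type I pair behaved otherwise. The log2 ratio of Col1a1 over Col1a2 was 0.00 in ERBB2 KO 1, with 8 reads of each gene, against -4.79 in WT 3, with an SD over the libraries of 2.00 beside 0.96 and 2.35. For Col5a1 over Col5a2 the SD of the ratio was 2.38, since Col5a2 reads appeared in WT 2 and WT 3 alone. For the neighbors Col3a1 and Col5a2 the log2 ratio lay between 2.79 and 6.20 in ERBB2 KO, at 3.31 in WT 1 and at -5.04 and -3.74 in WT 2 and WT 3, the widest spread of these pairs (SD 4.61, n = 6). These ratios are a description over 6 libraries and carry no test.

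**Figure D3:**
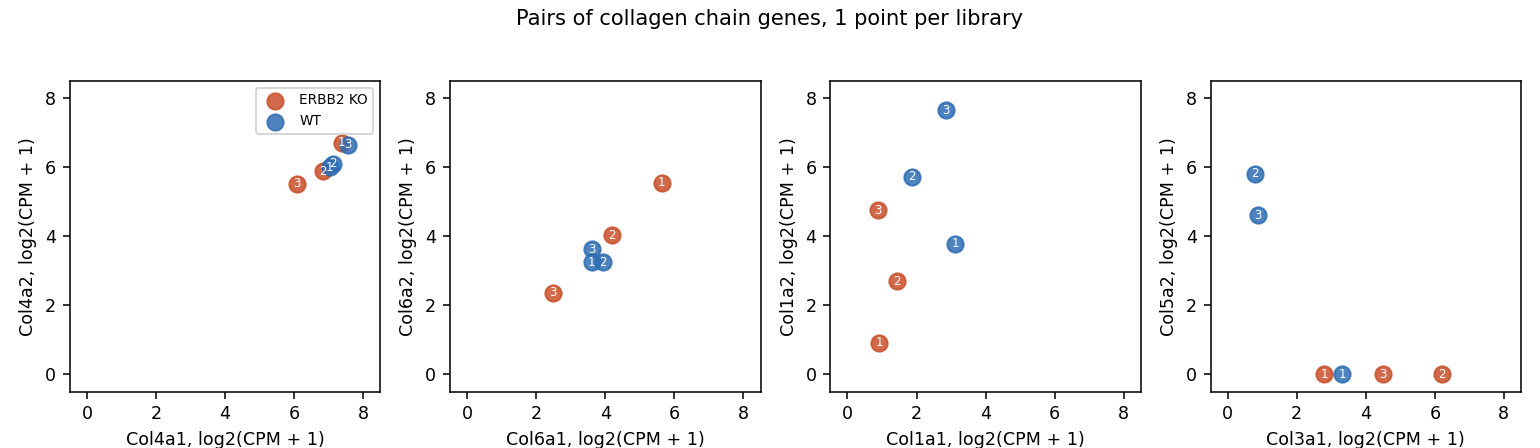
Levels of 4 pairs of collagen genes as log2(CPM + 1), 1 point per library with its replicate number (ERBB2 KO in orange, WT in blue). The Col4a1 and Col4a2 points and the Col6a1 and Col6a2 points lie along a line, the Col1a1 and Col1a2 points scatter, and the Col3a1 and Col5a2 points fall on opposite axes, WT 2 and WT 3 with Col5a2 and the other 4 libraries with Col3a1.

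In some collagens WT 2 and WT 3, the libraries with Xist reads, stood apart from the other 4. The collagen median of -0.45 depended on other libraries too. It was -0.67, -0.29 and -0.34 without WT 1, WT 2 or WT 3, and -0.86, -0.37 and -0.14 without ERBB2 KO 1, ERBB2 KO 2 or ERBB2 KO 3. In 6 of the 20 members (30.0%, against 18.2% of the 13539 genes at 1 CPM in any library) WT 2 and WT 3 were both above the other 4 libraries. These were Col1a2, Col5a2, Col7a1, Col11a1, Col12a1 and Col27a1, and only in Col3a1 were both below the other 4. Col5a2 and Col11a1 reached 1 CPM in WT 2 and WT 3 alone. They are members only through these libraries, so the limit of 1 CPM fixed their place in this count, which is no evidence about collagens. Set against WT 1 alone, a comparison chosen after seeing the data and in which the lone library is taken to vary like the ERBB2 KO libraries, 10 of the 17 genes were lower and the median log2 difference was -0.085. The log2 difference of Col7a1 was then -0.085, that of Col1a2 -0.99, that of Col27a1 -0.86 and that of Col3a1 1.19. That of Col1a1 was -2.04, farther from 0 than with all libraries, and those of Col5a1 (0.14), Col16a1 (0.55), Col4a2 (0.041) and Col6a3 (-0.013) had the opposite sign. Without WT 1 the values were -1.56 for Col7a1, -3.90 for Col1a2, -1.29 for Col1a1 and 3.67 for Col3a1.

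Some genes of cartilage and pericytes, Acan and Cspg4, were high in the same libraries, and others were not. The chondrocyte markers Sox9 and Acan, 2 of 4 in the table, summed to 222, 28.3 and 17.7 CPM in ERBB2 KO 1 to 3 against 39.8, 256 and 373 CPM in WT 1 to 3. Acan, the core protein of cartilage proteoglycan, was at 107 and 175 CPM in WT 2 and WT 3 and at no more than 6.27 CPM in the other 4 libraries. Sox9, a regulator of cartilage genes, was instead highest in ERBB2 KO 1, with 216, 28.3 and 17.4 CPM in ERBB2 KO 1 to 3 against 33.9, 149 and 198 CPM in WT 1 to 3. Of 5 smooth muscle and pericyte markers 4 were in the table, and their sum was 0 to 0.509 CPM in ERBB2 KO against 5.46 to 25.0 CPM in WT. Cspg4 had 0 reads in ERBB2 KO against 0.273, 23.5 and 22.0 CPM in WT 1 to 3. Acta2 was highest in WT 1, with 0.112, 0.254 and 0 CPM in ERBB2 KO 1 to 3 against 4.64, 1.45 and 1.28 CPM in WT 1 to 3. The part of these markers in the collagen levels was not tested. WT 1 carries the same genotype label as WT 2 and WT 3 and had 0 reads of Xist. No ERBB2 KO library was above 0.112 CPM for Xist. Between ERBB2 KO and WT 2 or WT 3, genotype and what sets WT 2 and WT 3 apart from WT 1 therefore cannot be told apart.

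**Figure D4:**
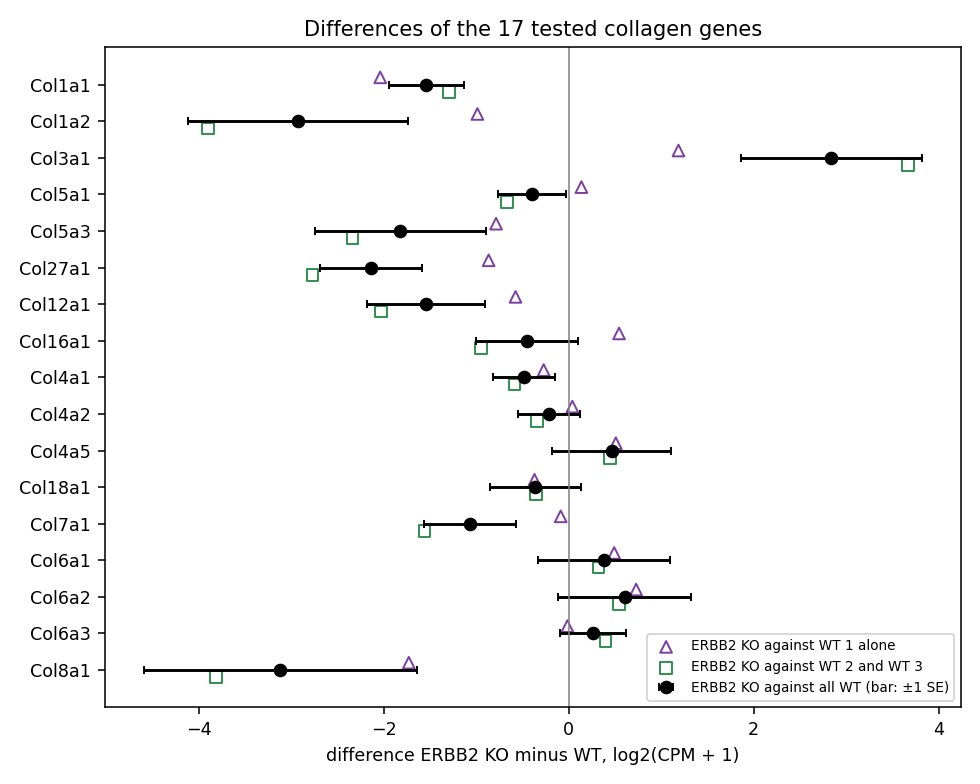
Log2 differences of the 17 tested collagen genes, ERBB2 KO minus WT, with all libraries (black, bar ±1 SE), against WT 1 alone (triangles) and against WT 2 and WT 3 (squares). For Col1a2, Col27a1, Col7a1 and Col3a1 the triangles lie nearer to 0 than the squares, and for Col1a1 (-2.04 and -1.29) they lie farther.

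The genes that modify, export, trim, cross-link, bind and degrade collagen were examined next, and 0 of the 46 that could be tested passed over all genes. Groups did not overlap in 10.6% of all tested genes (ERBB2 KO lower) and 8.76% (higher). By list, 1 of 12 was higher in modification, and 1 higher and 2 lower of 9 in folding and export. Cross-linking had 1 lower of 6, receptors 1 higher and 1 lower of 4, degradation 1 and 1 of 6, trimming and partners 0. With lists this small, no overlap of a single gene below is not read as a result about its list. From here on, higher and lower in the counts by list refer to the mean of log2(CPM + 1). Prolyl and lysyl hydroxylases and their partners were 5 higher and 7 lower of 12 tested, with a median log2 difference of -0.12 (6 and 6 under median-of-ratios scaling or quantile normalization). The direction of this list turned without ERBB2 KO 2 (7 of 12 higher, median 0.063), ERBB2 KO 3 (7 of 12, 0.048) or WT 3 (8 of 12, 0.068). P4ha2, a catalytic subunit of prolyl hydroxylase, was at 18.5, 22.8 and 23.5 CPM in ERBB2 KO 1 to 3 against 15.1, 8.22 and 7.54 CPM in WT 1 to 3. All ERBB2 KO values were above all WT values (1.05 ± 0.30 SE, limma adjusted p = 0.331). Its partner subunit P4hb was at 598, 397 and 470 CPM in ERBB2 KO 1 to 3 against 325, 294 and 396.9 CPM in WT 1 to 3 (0.52 ± 0.21, limma adjusted p = 0.361). ERBB2 KO 2 and WT 3 were level for P4hb, so these groups met. Plod2, a lysyl hydroxylase, was at 14.2, 7.04 and 9.66 CPM in ERBB2 KO 1 to 3 against 7.83, 22.4 and 27.6 CPM in WT 1 to 3 (limma adjusted p = 0.522). It was highest in WT 2 and WT 3, as was the fibrillar sum, while Col3a1 was lowest there and Col1a1 highest in WT 1.

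Of 9 tested genes of folding and export 6 were higher and 3 lower, with a median of 0.0093, while without ERBB2 KO 1 2 were higher (median -0.21) and without WT 1 4 were (-0.11). Serpinh1 (HSP47), the chaperone that binds folded collagen, was at 48.1, 18.1 and 27.5 CPM in ERBB2 KO 1 to 3 against 35.0, 62.1 and 59.2 CPM in WT 1 to 3. WT 2 and WT 3 were the highest and the groups overlapped (-0.79 ± 0.39 SE, limma adjusted p = 0.416). Ppib, the prolyl isomerase cyclophilin B, did not overlap, with 63.3, 47.0 and 42.3 CPM in ERBB2 KO 1 to 3 against 71.7, 143 and 85.2 CPM in WT 1 to 3 (-0.92 ± 0.30, limma adjusted p = 0.350). Mia3 (TANGO1), which loads collagen into carriers at the endoplasmic reticulum, lay the other way, with 118, 135 and 145 CPM in ERBB2 KO 1 to 3 against 101, 88.9 and 94.2 CPM in WT 1 to 3 (0.48 ± 0.16, limma adjusted p = 0.350). For trimming, 3 genes were tested and 3 were higher, at a median of 0.46 that was 0.13 without ERBB2 KO 3 and -0.0056 without WT 3. Bmp1, the protease that removes the C-propeptide, was nearly level, at 11.9 to 16.7 CPM in ERBB2 KO against 13.8 to 15.2 CPM in WT. Adamts2, which removes the N-propeptide, was at 29.2 CPM in ERBB2 KO 1, 3.46 CPM in WT 1 and at most 0.242 CPM in the other 4 libraries.

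All 6 tested cross-linking genes had a lower mean log2(CPM + 1) in ERBB2 KO, at a median of -0.59, and 4 of them did against WT 1 alone (median -0.26). The mean CPM of Loxl3 was higher in ERBB2 KO (5.30 against 4.18 CPM). It was at 14.7, 1.02 and 0.208 CPM in ERBB2 KO 1 to 3 against 4.46, 3.79 and 4.30 CPM in WT 1 to 3. The median was -0.996 without ERBB2 KO 1 and -0.24 without ERBB2 KO 2. Loxl1, a lysyl oxidase best known for elastic fibers, was at 1.46, 1.02 and 3.01 CPM in ERBB2 KO 1 to 3 against 5.10, 4.51 and 4.38 CPM in WT 1 to 3. All its ERBB2 KO values were below all WT values (-1.06 ± 0.34 SE, limma adjusted p = 0.347). Pxdn, the peroxidase that cross-links type IV collagen, was at 23.2, 8.48 and 14.1 CPM in ERBB2 KO 1 to 3 against 13.2, 29.5 and 30.9 CPM in WT 1 to 3 (-0.66 ± 0.45, limma adjusted p = 0.527). Lox, the main lysyl oxidase of fibrillar collagen, had reads mainly in WT 1, at 3.55 CPM, with at most 0.208 CPM in ERBB2 KO and 0 reads in WT 2 and WT 3. It could not be tested. The libraries with the most Col1a2 reads, WT 2 and WT 3, were thus without Lox reads, whereas Col1a1 was highest in WT 1 (7.65 CPM).

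Of 6 tested partners of fibrils and basement membranes 5 were lower, at a median of -0.35, but 3 under median-of-ratios scaling and 2 against WT 1 alone (median 0.25). Of the 5, Dcn (-0.0032 ± 2.11 SE) and Hspg2 (-0.032 ± 0.44) had differences near 0. The mean CPM of Dcn was higher in ERBB2 KO (89.2 against 12.7 CPM). The median of the list was -1.24 without ERBB2 KO 1, -0.72 without WT 1, -0.066 without ERBB2 KO 2 and 0.036 without ERBB2 KO 3. Thrombospondin Thbs1 was at 7.50, 28.6 and 16.9 CPM in ERBB2 KO 1 to 3 against 26.4, 179 and 120 CPM in WT 1 to 3, ERBB2 KO 2 lying just above WT 1 (-2.35 ± 0.75 SE, limma adjusted p = 0.347). Fibronectin Fn1, on which collagen fibrils are laid down, was at 270, 238 and 246 CPM in ERBB2 KO 1 to 3 against 245, 723 and 377 CPM in WT 1 to 3 (-0.69 ± 0.36, limma adjusted p = 0.435). Of 4 tested receptors 2 were higher and 2 lower, at a median of -0.061 that was -0.43 without ERBB2 KO 1, 0.17 without ERBB2 KO 3 and 0.30 against WT 1 alone. Itgb1, the beta subunit of the collagen-binding integrins, was at 295, 178 and 219 CPM in ERBB2 KO 1 to 3 against 347, 772 and 678 CPM in WT 1 to 3. Its groups did not overlap (-1.32 ± 0.34, limma adjusted p = 0.321). The discoidin receptor Ddr2, a kinase that fibrillar collagen activates, did not overlap in the other direction, with 66.1, 37.4 and 44.0 CPM in ERBB2 KO 1 to 3 against 21.4, 0.483 and 23.8 CPM in WT 1 to 3 (2.38 ± 1.02, limma adjusted p = 0.378).

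Among the proteases that degrade collagen and their inhibitors, 5 of 6 tested genes had a higher mean in ERBB2 KO, at a median of 0.84, and 3 of 6 against WT 1 alone (median 0.0085). Mmp14, a collagenase in the cell membrane, was at 55.4, 97.9 and 73.6 CPM in ERBB2 KO 1 to 3 against 113, 0.242 and 0.754 CPM in WT 1 to 3. WT 1 was its highest library, and it was nearly without reads in WT 2 and WT 3 (3.57 ± 1.58 SE, limma adjusted p = 0.386). For the inhibitors Timp1 and Timp2 the groups did not overlap, in opposite directions. Timp1 was at 77.2, 179 and 162 CPM in ERBB2 KO 1 to 3 against 186, 1235 and 382 CPM in WT 1 to 3 (-1.76 ± 0.67, limma adjusted p = 0.350). Timp2 was at 1220, 1063 and 1109 CPM in ERBB2 KO 1 to 3 against 787, 542 and 965 CPM in WT 1 to 3 (0.60 ± 0.23, limma adjusted p = 0.353).

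**Figure D5:**
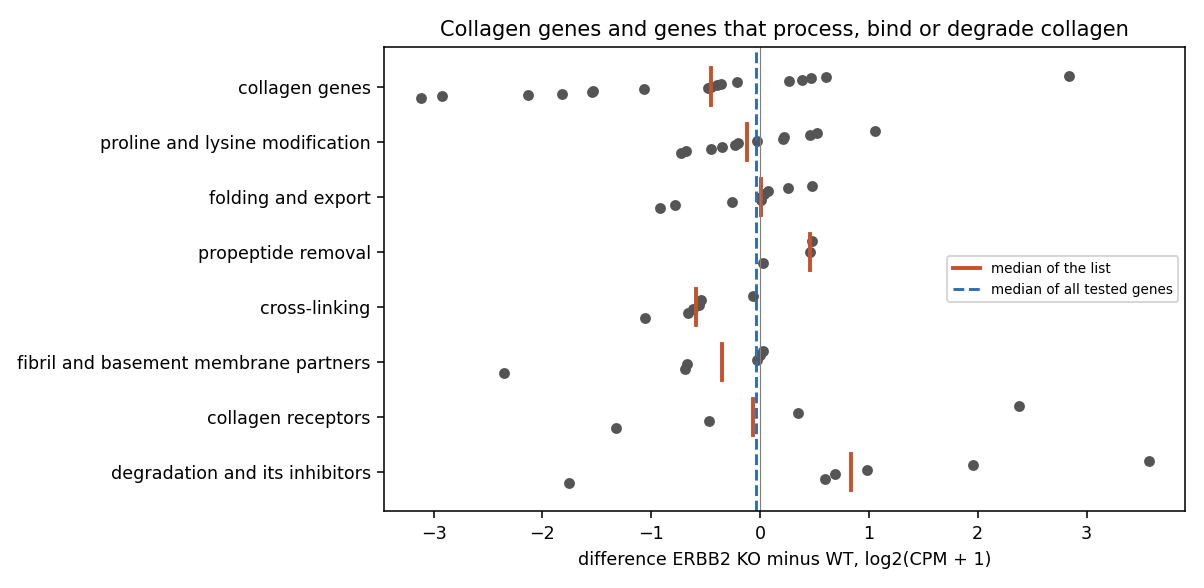
Log2 differences, ERBB2 KO minus WT, of the tested collagen genes and of tested genes in 7 lists of collagen processing, binding and degradation (1 point per gene). Orange bars mark the median of each list, from -0.59 for cross-linking to 0.84 for degradation and its inhibitors, and the dashed line the median of -0.039 over all tested genes.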

How the data were processed

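The authors deposited a table of log2 CPM for 20273 genes, built on mm10 according to the submitters' processing notes. The study's methods name Bwa as aligner with a later mouse build, which conflicts with mm10 and may not apply to these values. The counter and the annotation are not given in the sources used here. Per the labels the libraries were TruSeq total RNA, per the methods of the study QuantSeq 3' ends. Which applies is not settled, so sums over genes and shares of collagen reads describe reads and not amounts of transcript. CPM was recovered as 2 to the deposited log2 value minus the shared floor of 0.179. In every library 100% of values were whole reads within 0.1, which gave the read totals. Rows whose symbols had become dates (14) stayed in the totals and out of the tests.

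The 11803 genes that reached 1 CPM in 3 or more libraries were fitted on log2(CPM + 1) by limma 3.58.1 in R 4.3.3 (lmFit, eBayes with trend, group only, two-sided, Benjamini-Hochberg over all these genes, threshold 0.05). The pseudocount of 1 understates the change of low genes. An exact permutation test of 3 against 3 cannot go below 0.1. Simulated data, with levels and spread taken from these libraries, were fitted after the real data. Of 50 genes changed 2-fold 50% were recovered, and of 50 changed 4-fold 100%, with 11 false calls. The simulated spread was the median over all genes, so this recovery does not hold for genes that vary more between libraries.

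Members and gene lists were chosen with earlier results of these data known. Values per library are printed for members with 10 CPM in any library, an unadjusted p below 0.05 or no overlap. Of each list, Serpinh1, P4hb, Lox, Bmp1 and Pxdn and up to 4 genes of smallest p are named. Dcn and Hspg2 are named as well because their differences were near 0. Coordinates and promoters are from RefSeq GRCm38.p6, which held 33 of 33 collagen symbols. In 6 of the 20 members another annotated gene overlaps. Protein features were not analysed here. The alternatives were another pseudocount, the deposited log2 values, other filters and scalings, voom, array quality weights, the replicate number as a block and leaving out each library.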

Additional observations from a re-analysis of the deposited data

How the results depend on the processing

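Over 16 alternatives, 252 of 272 log2 differences of single collagen genes kept their sign and their side of the threshold, 12 had the opposite sign and 8 newly passed, and 9 of the 17 genes kept their direction throughout. The other filters and the replicate block cannot change a log2 difference, only its p-value, so the same sign under these settings was fixed in advance. Array quality weights, which set ERBB2 KO 1 (0.268) and WT 1 (0.418) low, gave 1759 genes and 7 collagens past the threshold (Col1a1, Col3a1, Col5a1, Col5a3, Col8a1, Col12a1 and Col27a1), a collagen median of -0.94, and -0.093 for Col4a5, -0.30 for Col6a1 and -0.24 for Col6a2. Leaving out each library gave 0 to 146 genes (146 without WT 1, 30 without ERBB2 KO 1), 0 to 1 collagen genes and a collagen median of -0.86 to -0.14. The ranges were -0.97 to 0.016 for Col18a1, -0.55 to 0.044 for Col4a2, -0.32 to 0.99 for Col4a5, -0.38 to 1.19 for Col6a1 and -0.18 to 1.42 for Col6a2. Against WT 1 alone, a comparison chosen after seeing the data, the values were 0.55 for Col16a1, 0.041 for Col4a2, 0.14 for Col5a1 and -0.013 for Col6a3. The causes were not tested. Scaling moved the median of all genes by less than 0.1 (log2). Members of few reads, such as Col27a1 and Col12a1 in ERBB2 KO, are limited by depth.

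The replicate numbers are shared by the groups, but deviations of libraries with the same number correlated at -0.216, -0.158 and -0.046, so the number was not taken as pairing. With the replicate block 0 genes and 0 collagens passed. The collagen median was -0.45, which the block cannot change.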
